A study of Drosophila melanogaster with 4 samples.

Results

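Aminoacyl-tRNA synthetases, the enzymes that attach each amino acid to its transfer RNA, were followed in the wing discs, the larval tissue that forms the adult wing and notum, of Drosophila melanogaster larvae in the third instar. They were taken as the rows of the deposited expression table whose gene name has the older FlyBase form Aats- or the newer form of an amino acid code followed by RS. The rule found 22 of 17559 genes, all 22 by the older form and 0 by the newer one, and the table's own description names a tRNA synthetase for each of the 22. There were 2 libraries from control larvae of the y w genotype, named for the body colour gene yellow and the eye colour gene white, and 2 libraries from Paip1 mutant larvae. The product of Paip1 is known to bind the protein that coats the poly(A) tails of mRNAs and takes part in translation. The labels give neither the Paip1 allele, the age in hours and the sex of the larvae, nor whether the mutant carries y and w, so strain and mutation cannot be told apart. Whether the replicates are separate pools of animals is not stated either, and the p-values therefore cover only the spread from library to library, part of which may be technical.

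Each cell needs the synthetases to supply ribosomes with charged transfer RNA. The enzymes fall into class I and class II, which have unrelated catalytic folds. A cytosolic set serves translation in the cytoplasm, and a mitochondrial set, encoded in the nucleus and imported, serves the ribosomes of mitochondria. In animals several of the cytosolic enzymes are held with scaffold proteins in a multisynthetase complex. By current symbols, 15 of the 22 genes were counted as cytosolic and 7, whose symbols end in -m, as mitochondrial. Of these 7, 5 are listed in the table without that ending, so the gene listed as Aats-leu is LeuRS-m, and likewise those listed as Aats-ser, Aats-pro, Aats-met and Aats-phe. Current symbols are used below. No synthetase gene with a symbol ending in -m was found for glycine, histidine, lysine or threonine. GlyRS, HisRS, LysRS and ThrRS, counted as cytosolic throughout, may therefore serve both compartments, which transcript levels per gene cannot show.

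The values are TPM, a length-corrected share of the transcripts of each library. The table's header names no unit, and TPM was read from the sums, which were 99.57% and 99.65% of the full TPM scale in the control libraries and 91.95% and 93.6% of it in the mutant libraries. Values below are given for replicate 1 and then replicate 2 of each group. Paip1 itself had 112 and 121 TPM in control and 2.37 and 2.22 TPM in the mutant. The fixed marker genes of the wing disc epithelium were present in each library, with a summed level of 881 and 833 TPM in control and 411 and 492 TPM in the mutant, and 9 of 11 fell. Rose and fell here mean an adjusted p under 0.05 in the limma comparison described below, met by 15.6% and 29.1% of all genes tested. Markers of other tissues differed between libraries too. The 6 salivary gland glue genes summed to 3554 TPM in control replicate 1 and to between 1.77 and 3.11 TPM in the other 3 libraries, where Sgs4 was listed at 0. The 5 fat body markers summed to 1363 and 491 TPM in control and to 283 and 36.8 TPM in the mutant. All 8 larval muscle markers rose, from sums of 28.4 and 42.6 TPM to 245 and 177 TPM. Of the 5 tested hemocyte markers 3 rose, with the sum of all 6 at 23.7 and 33.1 TPM in control and 43.7 and 53 TPM in the mutant, and NimC1 was listed at 0 in control replicate 1. All 5 adult muscle precursor markers fell, from sums of 130 and 115 TPM to 43.1 and 58.7 TPM. The 4 tracheal markers summed to 548 and 560 TPM in control and 770 and 865 TPM in the mutant, but they did not move together. Of them 2 rose, serp and verm, and verm alone had 362 and 379 TPM in control and 512 and 556 TPM in the mutant. The other 2 were trh, which fell from 33.8 and 32.7 TPM to 15.6 and 17.4 TPM, and btl, which did not pass. The 5 markers of neurons and glia summed to 18.1 and 14.7 TPM in control and 11.1 and 11.4 TPM in the mutant. Without control replicates 1 and 2 and mutant replicates 1 and 2, in this order, the numbers lower were 5, 5, 8 and 9 for the disc epithelium and 1, 1, 2 and 5 for the adult muscle precursors, and the numbers higher 1, 1, 0 and 0 for the hemocytes and 0, 0, 2 and 2 for the trachea, while all 8 larval muscle markers passed in each of these fits. The part of these tissues in the synthetase values was not tested. In whole discs, fewer cells of a type and less RNA per cell cannot be told apart.

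Every synthetase gene found was expressed, and all 22 passed the filter of at least 1 TPM in at least 2 libraries. Control means of the cytosolic genes ran from 42.7 TPM for TrpRS to 183.5 TPM for AspRS, with a median of 81.0 TPM. Control means of the mitochondrial genes ran from 9.44 TPM for MetRS-m to 19.9 TPM for SerRS-m, with a median of 13.3 TPM. Among these 22 genes, the cytosolic and mitochondrial ranges did not overlap in control. They did not in the mutant either, at 43.3 to 225 TPM and 7.22 to 24.2 TPM. This does not hold in control for all synthetase genes. AspRS-m, a mitochondrial gene that the rule does not find, had a control mean of 47.1 TPM, above the 42.7 TPM of TrpRS. At the top, AspRS was at 183.5 ± 8.48 TPM (SD, n = 2 here and throughout), LysRS at 169.1 ± 0.276 TPM, ThrRS at 156.7 ± 5.62 TPM and AlaRS at 155.9 ± 5.76 TPM in control. ThrRS and AlaRS did not differ beyond their spread. In the mutant the order was AspRS at 225 ± 16.8 TPM, AlaRS at 202 ± 21.6 TPM, ThrRS at 198 ± 13.7 TPM and LysRS at 170.3 ± 2.16 TPM, and the spreads of the first 3 overlapped.

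**Figure D1:**
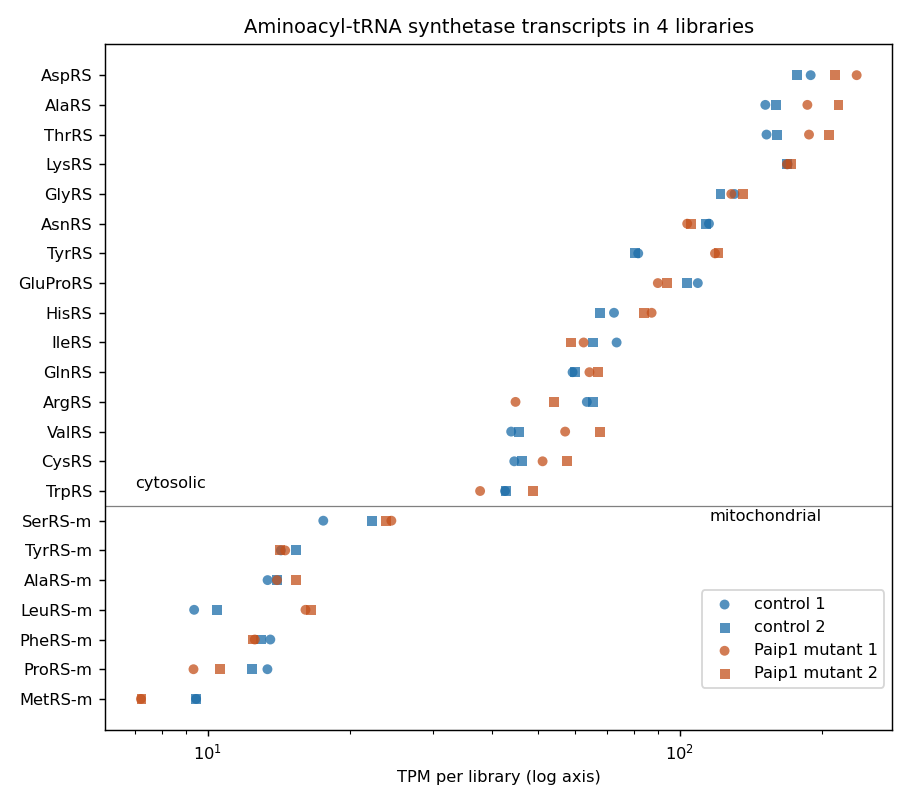
TPM of each of the 22 synthetase genes (rows) in each library (log axis), with control libraries in blue, Paip1 mutant libraries in orange, and circles and squares for replicates 1 and 2. The 15 cytosolic genes lie above the line and the 7 mitochondrial genes below it, with control means of 42.7 to 183.5 TPM and 9.44 to 19.9 TPM.

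The comparison asked which synthetase transcripts are at another level in discs of the Paip1 mutant. In TPM as deposited, 3 of the 22 genes rose and 0 fell, against 15.6% higher and 29.1% lower, 44.8% in all, of the 8605 genes tested (limma on log2(TPM + 1), Benjamini-Hochberg adjusted p under 0.05 over all genes tested). The 3 were LeuRS-m, TyrRS and ValRS, all class I enzymes, and they rose by 1.38-fold to 1.59-fold in TPM + 1. At an unadjusted p under 0.05, 7 were higher and 3 lower, the 3 being ArgRS, MetRS-m and ProRS-m. Of the 8605 genes tested, 1576 were higher and 3177 lower at that threshold, the background for every unadjusted count below. The median log2 fold change was 0.08 over the 22 genes and -0.22 over all genes tested, and 19 of the 22 lay above the median of all genes tested. Both mutant libraries were above both control libraries for 11 of the 22 and below them for 7, against 25.1% and 52.8% of all genes tested.

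LeuRS-m charges leucine in mitochondria. Its control libraries had 9.35 and 10.4 TPM and its mutant libraries 16.1 and 16.6 TPM. Its log2 fold change was 0.67 (SE 0.12, 95% interval 0.36 to 0.99, limma adjusted p = 0.0121), the highest of the 22. Both mutant libraries were well above both control libraries. TyrRS, the cytosolic tyrosine enzyme, was at 81.7 and 80.4 TPM in control and at 119 and 121 TPM in the mutant. Its log2 fold change was 0.56 (SE 0.10, 95% interval 0.31 to 0.81, limma adjusted p = 0.0114), and the replicates of each group lay close together. ValRS, the cytosolic valine enzyme, was at 43.9 and 45.7 TPM in control and at 57.2 and 67.7 TPM in the mutant. The mutant libraries were both higher but differed by more than the control libraries did, and the log2 fold change was 0.47 (SE 0.13, 95% interval 0.14 to 0.79, limma adjusted p = 0.0351).

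With 2 libraries per group, none of these calls passed in every fit with a library left out. Such a fit leaves 1 library in a group, and fewer of all genes tested pass in it. A lost call therefore does not by itself show that a change rested on the library left out. TyrRS passed without mutant replicate 1 or 2 (limma adjusted p = 0.0418 and 0.0325) and did not pass without control replicate 1 or 2 (0.102 and 0.113). ValRS passed without mutant replicate 1 (limma adjusted p = 0.0454), and its adjusted p was 0.0692 without mutant replicate 2, 0.197 and 0.172 without control replicates 1 and 2. LeuRS-m passed in none of the 4 such fits, with limma adjusted p from 0.0516 to 0.105. The log2 fold change stayed between 0.55 and 0.57 for TyrRS, between 0.35 and 0.59 for ValRS and between 0.60 and 0.74 for LeuRS-m.

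The other synthetases did not pass. Among them AlaRS, which charges alanine and removes wrongly charged serine and glycine, was at 152 and 160 TPM in control and 186 and 217 TPM in the mutant (log2 fold change 0.37, SE 0.12, limma adjusted p = 0.0579). ThrRS, the threonine enzyme, was at 153 and 161 TPM in control and 188 and 207 TPM in the mutant (0.33, SE 0.11, adjusted p = 0.0577). AspRS was at 189 and 177 TPM in control and 237 and 213 TPM in the mutant (0.29, SE 0.11, adjusted p = 0.0831). HisRS was at 72.6 and 67.9 TPM in control and 87.2 and 83.9 TPM in the mutant (0.28, SE 0.11, adjusted p = 0.081). For each of these 4 both mutant libraries lay above both control libraries, and the 95% interval of the log2 fold change lay above 0 before adjustment. CysRS and GlnRS were ordered the same way, with log2 fold changes of 0.25 (95% interval -0.04 to 0.55) and 0.14 (-0.12 to 0.40).

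LysRS was at 169 TPM in both control libraries and at 169 and 172 TPM in the mutant libraries (log2 fold change 0.01, 95% interval -0.24 to 0.26). GlyRS, whose human counterpart supplies both the cytosol and mitochondria, was at 131 and 122 TPM in control and 129 and 136 TPM in the mutant (0.07, 95% interval -0.20 to 0.34). TrpRS was at 42.6 and 42.8 TPM in control, and at 37.8 and 48.8 TPM in the mutant, on either side of the controls (95% interval -0.38 to 0.39). The groups overlapped for all 3 genes.

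At the other end of the order, ArgRS was at 63.6 and 65.6 TPM in control and 44.9 and 54.2 TPM in the mutant (log2 fold change -0.38, SE 0.13, limma adjusted p = 0.0649). Its log2 fold change was -0.52 without mutant replicate 2 and -0.25 without mutant replicate 1 (limma adjusted p = 0.0379 and 0.129), and it did not pass without control replicates 1 or 2 either (0.231 and 0.287). GluProRS, a fused enzyme with a glutamate and a proline activity in a single chain, was at 109 and 104 TPM in control and 89.9 and 93.9 TPM in the mutant (-0.21, adjusted p = 0.151). IleRS was at 73.5 and 65.6 TPM in control and 62.6 and 58.8 TPM in the mutant (-0.19, adjusted p = 0.224). AsnRS was at 115 and 114 TPM in control and 104 and 106 TPM in the mutant (-0.13, adjusted p = 0.331). For these 4 genes both mutant libraries lay below both control libraries, and each log2 fold change but that of ArgRS lay above the median of all genes tested.

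The 3 lowest changes of the mitochondrial genes were those of MetRS-m, ProRS-m and PheRS-m. MetRS-m was at 9.44 TPM in both control libraries and at 7.21 and 7.23 TPM in the mutant libraries (log2 fold change -0.35, SE 0.13, limma adjusted p = 0.0756). ProRS-m was at 13.4 and 12.4 TPM in control and 9.32 and 10.6 TPM in the mutant (-0.34, adjusted p = 0.0856). PheRS-m was at 13.6 and 13.0 TPM in control and 12.6 and 12.5 TPM in the mutant (-0.08, adjusted p = 0.61). The mutant libraries were below the control libraries for all 3, in contrast to LeuRS-m. SerRS-m was at 17.6 and 22.3 TPM in control and 24.5 and 23.8 TPM in the mutant (0.27, adjusted p = 0.18), with more spread in control than between the mutant libraries. AlaRS-m and TyrRS-m had log2 fold changes of 0.10 (95% interval -0.21 to 0.40) and -0.04 (-0.33 to 0.26).

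**Figure D2:**
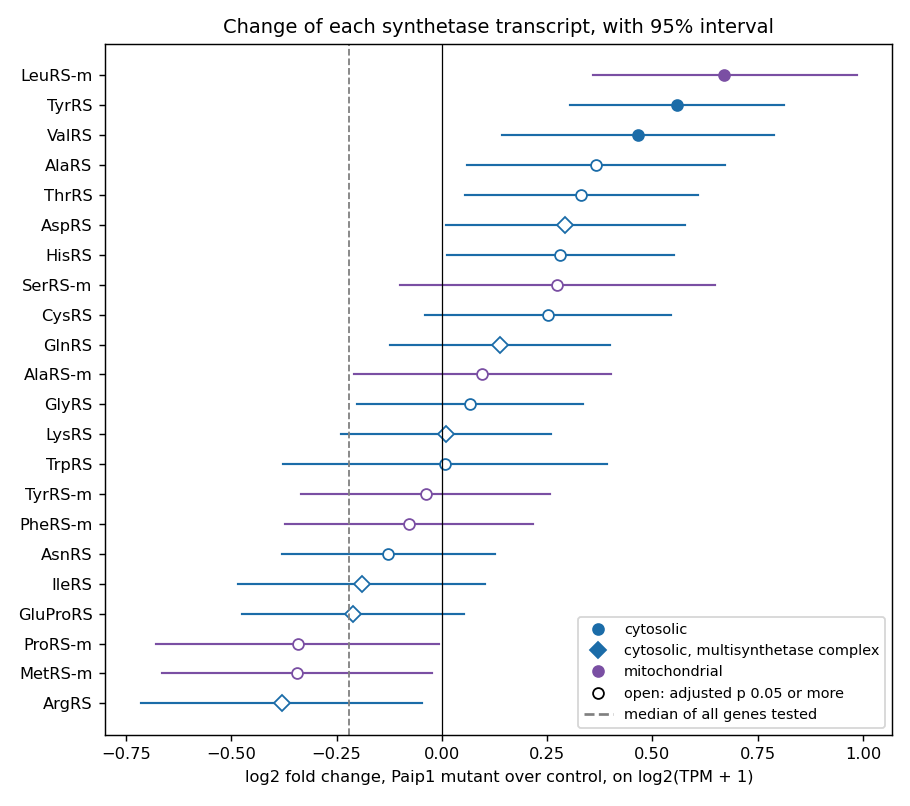
Log2 fold change of each synthetase gene (rows), Paip1 mutant over control on log2(TPM + 1), with its 95% interval from limma, n = 2 libraries per group. Cytosolic genes are blue, with diamonds for the multisynthetase complex, mitochondrial genes are purple, filled points have adjusted p under 0.05 and the dashed line is the median of all genes tested, -0.22. LeuRS-m, TyrRS and ValRS are the filled points at the top.

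By compartment, 2 of 15 cytosolic genes rose and 0 fell, with a median log2 fold change of 0.14. Of 7 mitochondrial genes 1 rose and 0 fell, with a median of -0.04 (limma). The shares that rose were near the 15.6% of all genes tested, of which 29.1% fell. At an unadjusted p under 0.05, 6 and 1 cytosolic and 1 and 2 mitochondrial genes were higher and lower. Summed over genes, the cytosolic transcripts were at 1500 and 1481 TPM in control and 1626 and 1704 TPM in the mutant. The mitochondrial transcripts summed to 90.9 and 96.9 TPM in control and 98.3 and 100.2 TPM in the mutant. The sum of the 22 genes was 0.160% and 0.158% of all listed TPM in control and 0.188% and 0.193% in the mutant. Within a library the cytosolic sum was 16.5 and 15.3 times the mitochondrial sum in control and 16.6 and 17.0 times in the mutant, a difference about as large as that between the control libraries.

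By catalytic class, 3 of the 10 class I genes and 0 of the 11 class II genes rose, against 15.6% of all genes tested. In either class 0 fell, against 29.1%, and the medians were 0.07 and 0.10 (limma). At an unadjusted p under 0.05, 4 class II genes were higher and 1 was lower. The split of the rises depended on the scaling. With a common sum per library 3 class I and 4 class II genes rose, against 17.6% of all genes tested. With the median-ratio scaling described below 5 and 6 rose, against 22.7%. GluProRS spans both classes and was set apart. By complex, the 6 genes whose products are known in animals as complex members (AspRS, GlnRS, LysRS, IleRS, GluProRS and ArgRS) had a median log2 fold change of -0.09, from -0.38 for ArgRS to 0.29 for AspRS. The other 9 cytosolic genes had a median of 0.28, from -0.13 for AsnRS to 0.56 for TyrRS. The 6 summed to 664 and 641 TPM in control and 668 and 659 TPM in the mutant, where the groups overlapped. The other 9 summed to 836 and 839 TPM in control and to 959 and 1045 TPM in the mutant, where they did not. LeuRS and MetRS, complex members whose names in the table the rule does not find, move this contrast: all 8 complex genes had a median of 0.07 and the 12 other cytosolic genes of both kinds 0.25, and the 8 summed to 757 and 733 TPM in control and 770 and 776 TPM in the mutant, without overlap. The sets of genes overlapped in their changes, and the difference between the sets was not tested.

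The size of each change depended on how the libraries were set against each other. TPM is a share, and the median log2 fold change of all genes tested was -0.22 in TPM as deposited, -0.12 after scaling the listed values to a common sum and 0.02 after scaling by median ratios. With a common sum, 7 synthetase genes rose and 0 fell, against 17.6% and 22.1%, 39.7% in all, of all genes tested. The 4 added to LeuRS-m, TyrRS and ValRS were AlaRS, ThrRS, AspRS and HisRS. With median-ratio scaling, 11 rose and 0 fell, against 22.7% and 16.0%, 38.6% in all, of all genes tested (limma). The further 4 were CysRS, GlnRS, GlyRS and SerRS-m. Here TyrRS had a log2 fold change of 0.81 (adjusted p = 0.00322), ValRS of 0.71 (0.00452), LeuRS-m of 0.91 (0.00495), AlaRS of 0.62 (0.00539) and ThrRS of 0.58 (0.00542). Under this scaling too, fewer synthetase genes and fewer of all genes tested were higher in each fit with a library left out. TyrRS and ValRS passed in all 4 of these fits. ArgRS, MetRS-m and ProRS-m kept negative values, -0.13, -0.12 and -0.11, and none of the 3 passed. GluProRS, IleRS, AsnRS, PheRS-m and TyrRS-m were negative in TPM as deposited and positive under median-ratio scaling.

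In the authors' deposited table, whose fold changes differ from the ratios of the TPM means, 10 of the 22 genes had an adjusted p under 0.05 and a positive log2 fold change, and 0 had one with a negative log2 fold change. Among the genes tested here, 19.9% and 20.8% were called higher and lower in the authors' deposited table. Its values for LeuRS-m, TyrRS and ValRS were log2 fold changes of 0.89, 0.74 and 0.64. TrpRS stood apart: the authors' deposited table gave it a log2 fold change of 0.35 with an adjusted p of 0.0292, while its mean TPM was 42.7 in control and 43.3 in the mutant. With median-ratio scaling TrpRS was nearer to the authors' value, at 0.255 (limma adjusted p = 0.13). For SerRS-m the authors' deposited table gave 0.20 with an adjusted p of 0.443, the only one of the 22 below its change in TPM as deposited.

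**Figure D3:**
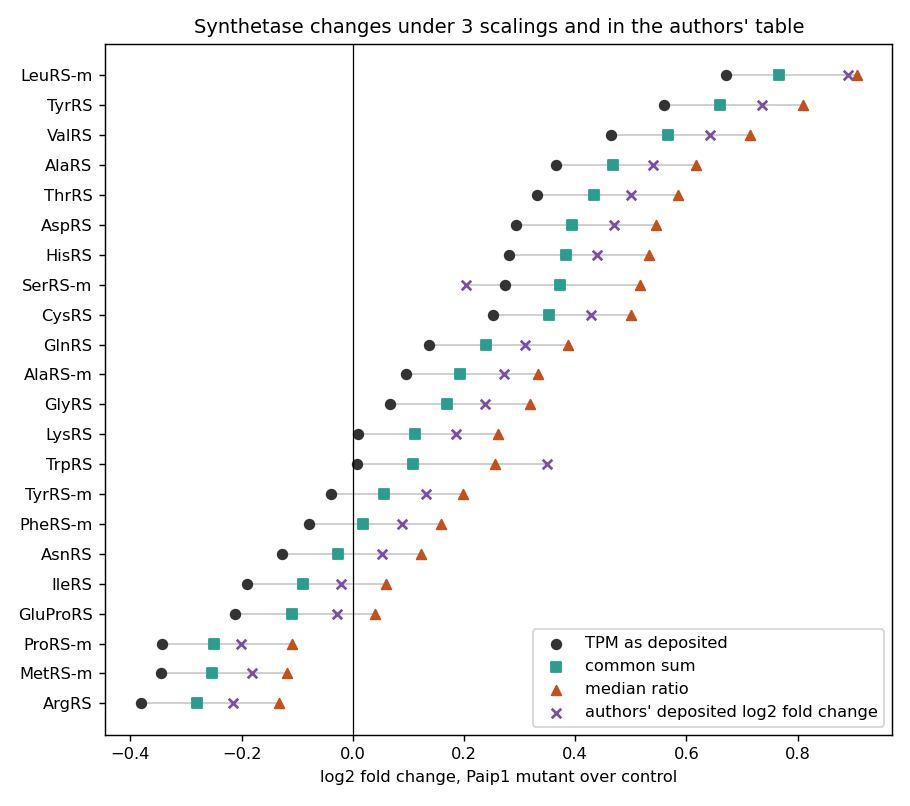
Log2 fold change of each synthetase gene (rows, ordered by the change in TPM as deposited) under 3 scalings of the libraries and in the authors' deposited table. The points shift to the right together from TPM as deposited to median-ratio scaling, LeuRS-m from 0.67 to 0.91 and ArgRS from -0.38 to -0.13, and TrpRS is at 0.35 in the authors' deposited table.

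A further 13 genes have current symbols of synthetases but are listed in the table under other names, so the rule does not hold them. None of the 13 passed in TPM as deposited, against 15.6% higher and 29.1% lower of all genes tested. At an unadjusted p under 0.05, 0 were higher and 0 lower (limma). Their median log2 fold change was 0.07, against 0.08 for the 22. With median-ratio scaling 5 of them rose (SerRS, MetRS, LeuRS, alpha-PheRS and ValRS-m) and 0 fell, against 22.7% and 16.0% of all genes tested. SerRS was the most abundant of them, at 158 and 163 TPM in control and 188 and 196 TPM in the mutant (log2 fold change 0.25, limma adjusted p = 0.0925). LeuRS was at 51.1 and 48.7 TPM in control and 56.8 and 59.0 TPM in the mutant (0.21, adjusted p = 0.153). MetRS was at 41.9 and 43.0 TPM in control and 45.7 and 58.3 TPM in the mutant (0.28, adjusted p = 0.175). For all 3 both mutant libraries lay above both control libraries, an order found in 25.1% of all genes tested. The alpha and beta subunits of the cytosolic phenylalanine enzyme had log2 fold changes of 0.08 and -0.23. The 5 cytosolic genes of the 13 had a median control level of 70.8 TPM and the 8 mitochondrial ones of 10.3 TPM, with AspRS-m highest at 47.1 TPM. Slimp, an insect relative of the mitochondrial serine enzyme that does not charge transfer RNA, was at 9.30 and 11.8 TPM in control and 8.77 and 10.2 TPM in the mutant, where the groups overlapped.

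The ratio of the cytosolic to the mitochondrial enzyme gene for the same amino acid, taken within each library, does not depend on the scaling. It could be formed for 16 pairs, counting GluProRS against both GluRS-m and ProRS-m and both subunits of the phenylalanine enzyme against PheRS-m. The ratio was higher in both mutant than in both control libraries for 5 pairs, lower for 4 and overlapped for 7. How often ratios of other gene pairs are so ordered was not computed, so these counts cannot be called particular to synthetases. TyrRS to TyrRS-m went from 5.72 and 5.24 in control to 8.15 and 8.52 in the mutant. MetRS to MetRS-m went from 4.43 and 4.55 to 6.34 and 8.07, and AspRS to AspRS-m from 3.99 and 3.80 to 6.01 and 5.01. For alanine the ratio went from 11.4 in both control libraries to 13.3 and 14.1. Leucine had the opposite order, with LeuRS to LeuRS-m at 5.46 and 4.66 in control and 3.53 and 3.56 in the mutant. For the pair of ValRS and ValRS-m, whose cytosolic member rose, the ratios were 11.4 and 9.97 in control and 11.2 and 11.7 in the mutant, and the groups overlapped. With 2 libraries per group the exact two-sided permutation test cannot give a p below 0.333, which is the value for each of the 9 pairs without overlap.

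**Figure D4:**
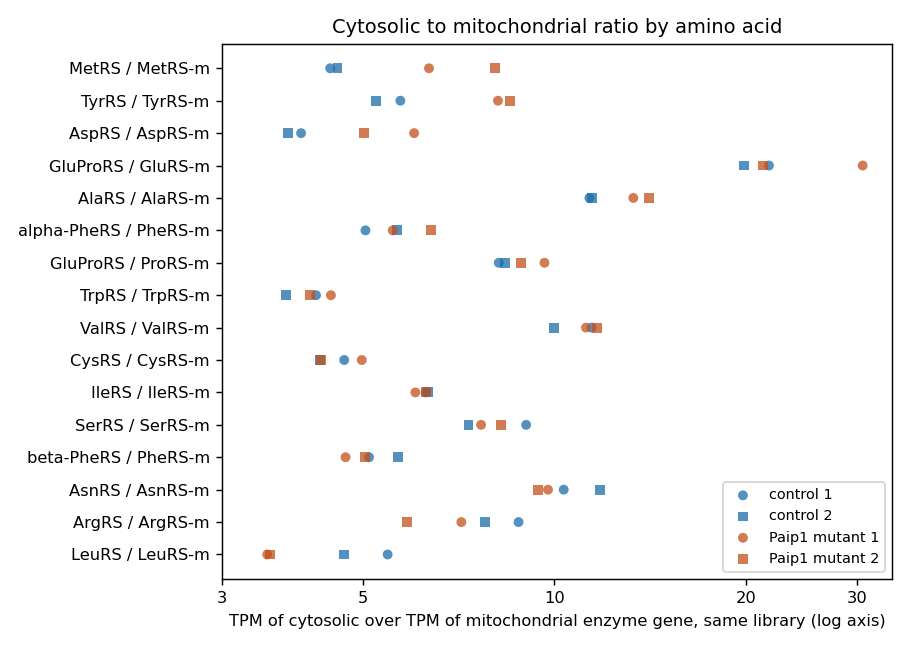
Ratio of TPM of the cytosolic to the mitochondrial synthetase gene for each amino acid (rows, ordered by the change in the ratio), within each library (log axis), with control libraries in blue and Paip1 mutant libraries in orange. The mutant libraries are to the right of both control libraries for 5 pairs, among them TyrRS to TyrRS-m, and to the left for 4, among them LeuRS to LeuRS-m.

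The synthetase genes lie on 5 chromosome arms, with 6 on 3L, 5 each on 2R and 3R, and 3 each on 2L and X. LeuRS-m (FBgn0027085) spans positions 4825853 to 4829038 on the plus strand of 3L in dm6, and ValRS (FBgn0027079) spans 13198850 to 13202709 on the plus strand of 2R. TyrRS (FBgn0027080) spans 16417349 to 16419302 on the minus strand of 3L. Its neighbour on the same strand, with 171 bases between the genes, is the mitochondrial glutamate enzyme gene GluRS-m. GluRS-m was at 5.02 and 5.22 TPM in control and 2.94 and 4.41 TPM in the mutant (log2 fold change -0.41, 95% interval -0.94 to 0.12), and both mutant libraries lay below both control libraries. The coding sequences of the 22 run from 417 codons in SerRS-m to 1714 codons in GluProRS. Exons of 13 of the 22 overlap no other annotated gene, LeuRS-m, TyrRS and ValRS among them. Exons of 7 overlap a gene on the other strand only, and those of AspRS and HisRS overlap a gene on their own strand, so reads of these 9 may be shared with neighbours.

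Further genes that act with the synthetases were described by list. The complex is held together by the scaffold proteins AIMP1, AIMP2 and AIMP3. None of the 3 passed (limma, 0 higher and 2 lower at an unadjusted p under 0.05), and their median log2 fold change was -0.35. AIMP2 was at 107 and 119 TPM in control and 84.4 and 91.9 TPM in the mutant (-0.35, adjusted p = 0.0569). AIMP3 was at 57.4 and 56.7 TPM in control and 40.3 and 49.4 TPM in the mutant (-0.35, adjusted p = 0.088). Both mutant libraries lay below both control libraries for each of the 3 scaffolds, an order found in 52.8% of all genes tested. The same held for all 3 subunits of the amidotransferase that makes glutaminyl-tRNA in mitochondria, GatA, GatB and GatC, none of which passed (0 higher and 2 lower at an unadjusted p under 0.05). GatC was at 21.2 and 21.7 TPM in control and 15.2 and 17.9 TPM in the mutant (-0.36, limma adjusted p = 0.0739).

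Elongation factors take the charged transfer RNA to the ribosome. Of 7 tested cytosolic elongation factor genes 0 passed (limma, 1 higher and 1 lower at an unadjusted p under 0.05), with a median log2 fold change of -0.14. eEF1alpha1, the carrier of aminoacyl-tRNA, was at 9459 and 8906 TPM in control and 8932 and 9136 TPM in the mutant, where the groups overlapped. eEF2, the translocation factor, was at 2643 and 2349 TPM in control and 3192 and 3048 TPM in the mutant (0.32, adjusted p = 0.0587). Of 6 mitochondrial translation factor genes 1 rose and 2 fell, shares close to the 15.6% and 29.1% of all genes tested. mEFTu1, the mitochondrial carrier of aminoacyl-tRNA, rose from 110 TPM in both control libraries to 156 and 143 TPM (0.44, limma adjusted p = 0.0252), and mEFTs and mRF1 fell (-0.49 and -0.58, adjusted p = 0.0187 and 0.0383). These 3 calls were lost without control replicate 1 (adjusted p = 0.163, 0.158 and 0.109), control replicate 2 (0.173, 0.122 and 0.226) and mutant replicate 1 (0.0611, 0.0608 and 0.116), and that of mRF1 also without mutant replicate 2 (0.0896).

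The transcription factor ATF4, encoded by crc in flies, is known in mammals to activate synthetase genes along with genes of amino acid synthesis and uptake. Of 13 genes of ATF4 and the integrated stress response 8 rose and 2 fell, against 15.6% and 29.1% of all genes tested, with a median log2 fold change of 0.62. Leaving out a library gave 5, 5, 5 and 6 higher and 0, 2, 0 and 0 lower without control replicates 1 and 2 and mutant replicates 1 and 2. trbl, a pseudokinase gene, and Gadd45, a stress gene, had log2 fold changes of 1.68 and 3.21 (limma adjusted p = 0.000509 and 0.000639). Irbp18, a dimer partner of basic leucine zipper factors, was at 44.5 and 40.3 TPM in control and 164 and 143 TPM in the mutant (1.83, limma adjusted p = 0.000734), and Xrp1, which binds it, was at 255 and 247 TPM and 660 and 690 TPM (1.42, adjusted p = 0.000765). crc, named here after its values were seen, was at 760 and 642 TPM in control and 1099 and 1051 TPM in the mutant (0.62, limma adjusted p = 0.0142). Without control replicates 1 and 2 and mutant replicates 1 and 2 the adjusted p of crc was 0.0576, 0.111, 0.0818 and 0.0566. The largest log2 fold change of a synthetase was 0.67, for LeuRS-m.

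Amino acids for charging come from synthesis and uptake. Of 12 genes of amino acid synthesis 1 rose and 4 fell, against 15.6% and 29.1% of all genes tested, with a median log2 fold change of -0.44. AsnS, asparagine synthetase, was at 12.6 and 13.7 TPM in control and 25.7 and 23.5 TPM in the mutant (0.86, limma adjusted p = 0.00603), with adjusted p = 0.0676 and 0.0525 without control replicates 1 and 2. Gs1, a glutamine synthetase, was at 7.27 and 8.37 TPM in control and 2.31 and 1.73 TPM in the mutant (-1.55, adjusted p = 0.00385). Without each library in turn, in the order control replicates 1 and 2 and mutant replicates 1 and 2, the numbers lower in this list were 1, 1, 2 and 3, and Gs1 passed in all 4 fits. Of the 10 listed amino acid transporter genes 5 passed the filter, of which 0 rose and 2 fell, against the same shares of all genes tested (limma, 1 higher and 2 lower at an unadjusted p under 0.05). The other 5 (slif, sbm, tadr, NAAT1 and polyph) stayed under 1 TPM in each library, with mutant means above control means. The authors' deposited table called 4 of the 10 higher and 2 lower, against 15.5% and 13.3% of the genes it tested. mnd, a light chain of heteromeric amino acid transporters, was at 30.1 and 29.6 TPM in control and 6.32 and 10.2 TPM in the mutant (-1.77, adjusted p = 0.00415). Its heavy chain partner gene CD98hc was at 234 and 235 TPM in control and 126 and 156 TPM in the mutant (-0.74, limma adjusted p = 0.0117). Without control replicate 1 or 2 the fall of CD98hc did not pass (adjusted p = 0.09 and 0.0933), and mnd passed in all 4 fits.

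Of 15 genes that process or modify transfer RNA 4 rose and 4 fell, against 15.6% and 29.1% of all genes tested, and the median log2 fold change was -0.18, near the -0.22 of all genes tested. RtcB, the ligase that joins the exons of spliced transfer RNAs, was at 56.6 and 61.0 TPM in control and 121 and 155 TPM in the mutant (1.21, limma adjusted p = 0.00444), and it passed without each library in turn. La, which binds new transcripts of RNA polymerase III, was at 223 and 263 TPM in control and 441 and 448 TPM in the mutant (0.87, adjusted p = 0.00583). Rpp30, a subunit of RNase P, fell by 0.72 on the log2 scale (limma adjusted p = 0.0104). Without control replicates 1 and 2 and mutant replicates 1 and 2 the numbers higher were 1, 2, 3 and 4 and the numbers lower 0, 0, 0 and 2.

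Median-ratio scaling, with which 22.7% of all genes tested rose and 16.0% fell, also moved the calls of these lists (limma). With it 2 mitochondrial translation genes rose and 0 fell, 9 stress response genes rose and 0 fell, 1 gene of amino acid synthesis rose and 2 fell, 2 transporter genes rose and 2 fell, 4 transfer RNA processing genes rose and 2 fell, 1 cytosolic elongation gene, eEF2, rose, and 0 scaffold or amidotransferase genes passed.

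**Figure D5:**
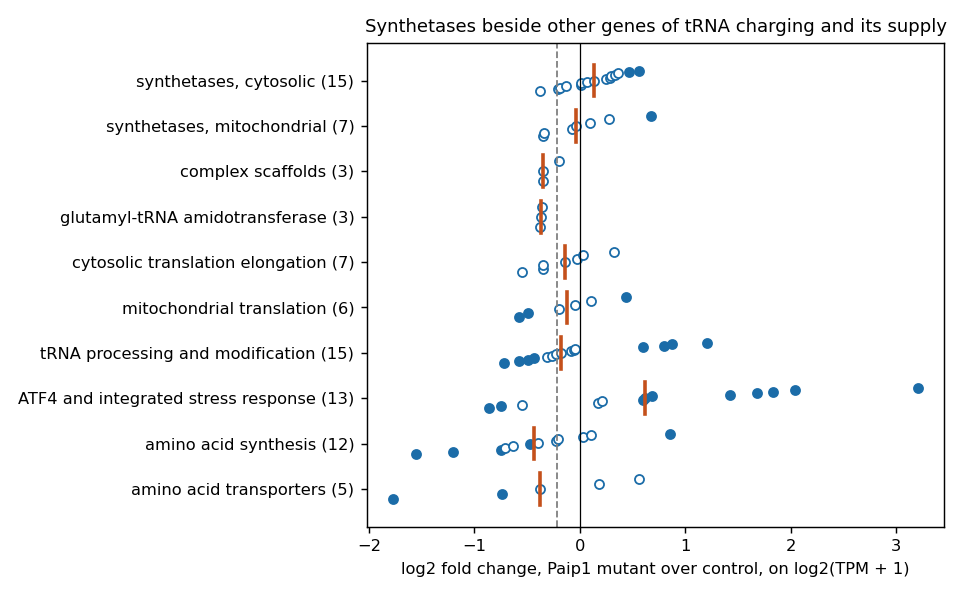
Log2 fold change, Paip1 mutant over control on log2(TPM + 1), of the tested genes of each list (rows, number tested in brackets), with 1 point per gene, filled where the limma adjusted p is under 0.05. Orange bars mark the median of a list and the dashed line the median of all genes tested, -0.22. The cytosolic synthetases have a median of 0.14, the complex scaffolds of -0.35 and the ATF4 list of 0.62.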

How the data were processed

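A single table of the whole series was used. Its library columns were read as TPM, and the authors deposited them with no unit in the header. The mean columns are the authors' means of these TPM values. Per the file headers, it further holds a fold change (a ratio of mutant to control) with its log2 value, and the authors' p-value, raw and adjusted. The submitters' processing notes name the build dm6 and the tools RSEM, TopHat, DESeq and FastQC. How strand and shared reads were handled is not given here. TPM keeps no read depth, so counting intervals are left out and 2 libraries per group set the precision. Of the genes above 0 in at least 1 library of a pair, 0.333% to 1.213% had exactly the same listed value in both, so no library was a copy of another.

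Gene IDs were matched to current symbols for 17253 genes, 209 more were matched by older names in RefSeq and 97 were not matched. Of the 22 synthetases 21 matched by ID and 1, PheRS-m, by its older name. Coordinates, exons and coding lengths came from Ensembl annotation 115 on dm6. Sequences were not used here.

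In R 4.3.3, log2(TPM + 1) values were tested two-sided by limma 3.58.1 with moderated variances that follow the mean. Genes had to reach 1 TPM in 2 or more libraries, which left 8605, with Benjamini-Hochberg adjustment over all of them and 0.05 as the threshold. Because of the pseudocount, log2 fold changes understate the change of low genes. The code was checked on simulated data. Alternatives were a common sum per library, median-ratio scaling, pseudocounts of 0.1 and 5, no filter, a mean of at least 5 TPM, variances without a trend, the replicate number as a block, and each library left out. A count model was foreseen for counts only and was not used. Left-out libraries under median-ratio scaling, and compartments by listed names, were added after seeing the data. Summaries used pandas 2.3.3, and plots matplotlib 3.10.9, under Python 3.11.15, with numpy 2.4.6 for arrays and scipy 1.17.1 for exact tests.

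The synthetase genes and the gene lists were chosen with earlier results of these data known. The rule for named genes took each synthetase found, and from each list as many as 4 genes past the threshold in order of p, and where none passed the 2 most abundant. From these the text takes those that best describe a list. Of the genes so chosen, 1 is not reported here. Of the listed symbols eEF3, Phgdh and Psat found no gene in the table.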

Additional observations from a re-analysis of the deposited data

How the results depend on the processing

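The number of synthetase genes higher in the mutant was 3 in TPM as deposited and stayed at 2 or 3 with pseudocounts of 0.1 or 5, with no filter, with only genes whose mean reached 5 TPM and with variances without a trend. It was 7 with a common sum per library and 11 with median-ratio scaling. With a library left out, under either scaling, it ran from 0 to 8 and the number lower from 0 to 1. The median log2 fold change of the cytosolic genes was 0.24 with a common sum, 0.39 with median-ratio scaling, 0.10 with compartments by listed names and 0.11 to 0.19 with a library left out. That of the mitochondrial genes was 0.057, 0.199, 0.029 and -0.057 to 0.01. No called gene changed sign, while 7 of the 22 genes had another sign in at least 1 setting. ValRS did not pass with no filter (limma adjusted p = 0.0577) or with variances without a trend (0.0512). With the replicate block 5 genes were higher and 1, ArgRS, was lower. The labels do not say that replicate numbers pair the libraries. Deviations of same-numbered libraries correlated at 0.065 across 8605 genes. This single correlation cannot decide whether same-numbered libraries shared a batch. Over all genes tested, 1346 were higher and 2506 lower in TPM as deposited, against 1952 and 1376 with median-ratio scaling, 1515 and 1900 with a common sum, 1531 and 1700 with no filter, 607 and 406 when control replicate 1 was left out, 634 and 465 when control replicate 2 was, and 874 and 964 when mutant replicate 1 was. DESeq2 was not run because the table holds no counts. The cause of these differences was not tested. Read depth is unknown, so the precision of low genes such as the mitochondrial ones could not be set.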
